A study of Mus musculus with 17 samples.

Results

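Elastic fibres and microfibrils are extracellular matrix fibres, and 10 genes that encode their parts are described here in mouse pancreatic stellate cells: elastin (Eln), the fibrillins Fbn1 and Fbn2, the fibulins Fbln2, Fbln5 and Efemp2, the microfibril-associated glycoproteins Mfap2 and Mfap5, and the latent TGF-beta binding proteins Ltbp1 and Ltbp2. They were chosen by name from 35896 gene IDs in the count files, and each matched 1 gene ID. All 10 members were among the 13923 genes that passed the filter on low counts. The rule lists them by name and uses no measured value.

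RNA was sequenced from 17 libraries of 2 wild-type (WT) stellate cell lines of strain C57BL/6J, PSC4 and PSC5, which were grown for 4 days under their treatment in Matrigel, a basement membrane extract. The control group received control medium (PSC4 replicates 1, 2 and 3, PSC5 replicates 1 and 2). The TGF-beta group received TGF-beta at 20 ng/mL (PSC4 replicates 2 and 3, PSC5 replicates 1 and 2). A further group received medium conditioned by pancreatic tumour organoids (CM), and the last received CM with neratinib at 300 nM, a kinase inhibitor of the ERBB receptors. Each of these had PSC4 replicates 1 and 2 and PSC5 replicates 1 and 2. Replicate 1, 2 and 3 of PSC4 were at passage 23, 24 and 25, and replicate 1 and 2 of PSC5 at passage 27 and 28. The CM and neratinib libraries numbered 2 carry the code T6 and those numbered 1 carry T8, which the labels do not explain, so in these groups replicate number, passage and medium code cannot be told apart. The series describes the control cells as quiescent and the TGF-beta cells as myofibroblastic. All groups share a wild-type background and 2 lines, so other stellate cell lines are not represented.

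An elastic fibre has a core of elastin laid on a scaffold of microfibrils. The microfibril is a polymer of fibrillin, to which the microfibril-associated glycoproteins bind, and short fibulins such as fibulin-5 and fibulin-4 (the product of Efemp2) bring elastin to the scaffold and to the lysyl oxidases that cross-link it. Latent TGF-beta binding proteins anchor the inactive form of TGF-beta in this matrix, so that the same fibres store the growth factor, and TGF-beta is in turn known to raise the expression of many matrix genes in fibroblasts.

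The bases upstream of the RefSeq start (build GRCm38.p6) are shown for 5 members, because these genes either had an unadjusted p under 0.05 in the test of the line difference with TGF-beta, though no call after adjustment (Fbln5, Ltbp2), or were called in at least 1 comparison of groups (Efemp2, Mfap2, Ltbp1). RefSeq windows of 250 bases were matched for 7 of the 10 members; Eln, Fbn2 and Mfap5 were the others. Those of Fbn1 and Fbln2 lie wholly within an exon of the gene in GENCODE and are not printed. Where a window reached into an exon, the exonic bases were left off. Each sequence runs 5′ to 3′ on the strand of its gene and ends towards the start of the transcript. Capitals mark CAGAC or its reverse complement GTCTG, the letters bound by SMAD proteins, and in Mfap2 also GGAATG, the reverse complement of the TEAD motif CATTCC.
Fbln5, chr12:101819120-101819369, minus strand: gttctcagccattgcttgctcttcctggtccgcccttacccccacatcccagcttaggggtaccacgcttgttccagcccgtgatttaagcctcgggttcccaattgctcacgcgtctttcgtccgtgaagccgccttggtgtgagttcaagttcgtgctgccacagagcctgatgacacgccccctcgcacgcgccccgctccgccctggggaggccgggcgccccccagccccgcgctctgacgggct
Efemp2, chr19:5473696-5473945, plus strand: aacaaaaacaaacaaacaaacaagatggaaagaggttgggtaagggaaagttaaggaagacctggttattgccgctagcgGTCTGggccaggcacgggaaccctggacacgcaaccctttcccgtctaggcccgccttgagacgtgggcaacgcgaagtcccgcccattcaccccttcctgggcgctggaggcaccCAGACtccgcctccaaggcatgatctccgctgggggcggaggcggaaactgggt
Mfap2, chr4:141010174-141010417, plus strand: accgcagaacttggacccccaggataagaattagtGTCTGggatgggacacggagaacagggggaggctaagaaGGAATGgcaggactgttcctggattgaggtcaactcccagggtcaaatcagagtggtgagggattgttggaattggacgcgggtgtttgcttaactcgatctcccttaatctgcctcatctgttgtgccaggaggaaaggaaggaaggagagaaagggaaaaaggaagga
Ltbp1, chr17:75005279-75005528, plus strand: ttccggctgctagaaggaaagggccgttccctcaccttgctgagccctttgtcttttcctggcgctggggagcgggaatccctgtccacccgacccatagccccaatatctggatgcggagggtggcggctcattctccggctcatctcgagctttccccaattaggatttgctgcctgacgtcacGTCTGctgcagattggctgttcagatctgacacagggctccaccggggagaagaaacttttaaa
Ltbp2, chr12:84876533-84876741, minus strand: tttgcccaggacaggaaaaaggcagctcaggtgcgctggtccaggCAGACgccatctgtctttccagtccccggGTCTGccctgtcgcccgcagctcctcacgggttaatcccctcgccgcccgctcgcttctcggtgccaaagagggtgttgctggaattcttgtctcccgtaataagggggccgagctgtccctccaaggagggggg
The SMAD letters occurred in 4 of the 7 windows: 2 times in Efemp2, 2 times in Ltbp2, and once each in Mfap2 and Ltbp1. They occur in 42.2% of all 32851 RefSeq windows of this length. The TEAD letters occurred only in Mfap2 among the 7 (12.6% of all windows). The AP-1 motif TGANTCA (6.75% of all windows) and the TATA letters TATAAA (12.4%), searched on both strands like the others, occurred in none of the 7. Mfap2 held 2 of the 4 motifs, and the windows of Fbn1 and Fbln2 held none. These 2 windows are among the 7 but lie wholly within exons, so they do not show what lies upstream of those genes. These matches describe letters and do not show binding.

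Library totals lay between 22168953 and 29421447 counts. Values are given as CPM, the usual unit of counts scaled to library size, here after edgeR's TMM scaling, and a count of 3, taken as the floor, was between 0.101 and 0.137 CPM. Libraries are listed below in the order PSC4, then PSC5. The 3 libraries labelled PSC4 replicate 1 stood apart from their line: after removal of the group means, their correlations across genes with the other PSC4 libraries of other groups ran from -0.536 to -0.181 (median -0.309, 14 pairs), and with PSC5 libraries from -0.146 to 0.384 (median 0.195, 18 pairs). Whether their line label is right could not be checked from the labels, and this doubt bears on the cell line term, on the line differences and on every PSC4 value. For several results of the members, values without these libraries are given too. Calls said to hold under all alternatives also held without them. No such value is given for the paralog ratios or for most genes of the related lists. The 10 fibroblast and stellate markers summed to 4075 to 20443 CPM per library, with much of it from collagen (Col1a1 mean 1751 CPM in control). Among the others, Vim, Pdgfra, Pdgfrb, Dcn and Thy1 had control means of 1034, 436, 351, 181 and 75.1 CPM. The lowest in control were Des and Lum. Des, the intermediate filament desmin of stellate cells, lay at 0.584 to 3.71 CPM over all libraries. The proteoglycan gene Lum had a mean of 7.24 CPM in control. Of 8 leukocyte markers, Ptprc, Adgre1 and Itgam had at most 3 counts in every library. The sum of the 8 was 14.4 to 17.7 CPM in control, 6.61 to 7.81 CPM with TGF-beta, 26.8 to 53.2 CPM in CM and 35.5 to 67.9 CPM with neratinib. Of the 3 tested, Cd14, a co-receptor for lipopolysaccharide, was called higher in CM (37.4 against 12.9 CPM, log2 1.55, SE 0.21, edgeR, adjusted p = 0.000473) and with neratinib (49.4 CPM, log2 1.95, SE 0.22, adjusted p = 1.41e-05). It was called lower with TGF-beta (4.67 CPM, log2 -1.45, SE 0.23, adjusted p = 0.000186). The 8 smooth muscle markers summed to 336 to 531 CPM in control, 422 to 579 CPM with TGF-beta, 148 to 280.2 CPM in CM and 124 to 272 CPM with neratinib. Of 7 tested, 3 were called lower in CM, 4 with neratinib and 3 with TGF-beta, where 1 was higher. The summed level of 12 epithelial markers was 16.9 to 27.9 CPM in control, 15.9 to 21.7 CPM with TGF-beta, 22.8 to 185 CPM in CM and 10.0 to 323 CPM with neratinib, and the epithelial keratin gene Krt8 reached 94.0 CPM. By edgeR, 7 of the 11 tested epithelial genes were called higher in CM than in control and 9 of 11 with neratinib, but 0 between neratinib and CM. Beside these marker counts, the share of all genes with a call in CM against control was 7.05% for higher and 7.14% for lower, with 22.2% and 20.9% for neratinib, 19.7% and 20.5% for TGF-beta, and 10.8% and 9.63% for neratinib against CM. The part of epithelial, leukocyte or smooth muscle cells in the results was not tested. In bulk RNA, fewer cells of a type and less RNA per cell cannot be told apart.

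Per kb of exon, Fbln2 was the most abundant of the 10 in control medium (mean 207 CPM per kb, libraries from 193 to 218, n = 5), followed by Efemp2 (74.3, from 66.4 to 85.8). Ltbp1 (mean 38.0 CPM per kb), Mfap2 (32.6), Ltbp2 (28.8), Fbln5 (17.8) and Fbn1 (13) came next. Elastin itself was low (mean 1.39 CPM per kb, from 0.714 to 2.37), as were Mfap5 (0.482, from 0.0889 to 1.17) and Fbn2 (0.337, from 0.0271 to 0.595). The library ranges of neighbours overlapped for Ltbp1 and Mfap2, Mfap2 and Ltbp2, Eln and Mfap5, and Mfap5 and Fbn2, so these pairs are not ordered beyond their spread. With TGF-beta, Fbn1 had a mean of 48.6 CPM per kb (from 40.4 to 63.0, n = 4) and stood at rank 4 in place of rank 7, while Fbln2 was at rank 1 and Efemp2 at rank 2 in all 4 groups. In the TGF-beta group 3 neighbouring pairs had library ranges apart: Fbln2 and Efemp2, Efemp2 and Ltbp2, and Fbn1 and Ltbp1. In CM the order of means was Fbln2 (331 CPM per kb), Efemp2 (84.0), Ltbp1 (34.5), Ltbp2 (28.5), Mfap2 (17.1), Fbln5 (12.5), Fbn1 (10.4), Eln (0.507), Mfap5 (0.27) and Fbn2 (0.0421). With neratinib, Mfap2 (5.84 CPM per kb) came after Fbln5 (12.3) and Fbn1 (7.91), and Eln (0.153) after Mfap5 (0.25). The ranges of Ltbp1 and Ltbp2, Mfap2 and Fbln5, Fbln5 and Fbn1, and Eln and Mfap5 overlapped in CM. With neratinib those of Ltbp1 and Ltbp2, Ltbp2 and Fbln5, Fbn1 and Mfap2, Mfap5 and Eln, and Eln and Fbn2 overlapped. Together the 10 genes took 0.256% to 0.295% of the counts in control, 0.391% to 0.481% with TGF-beta, 0.298% to 0.36% in CM and 0.208% to 0.383% with neratinib.

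**Figure D1:**
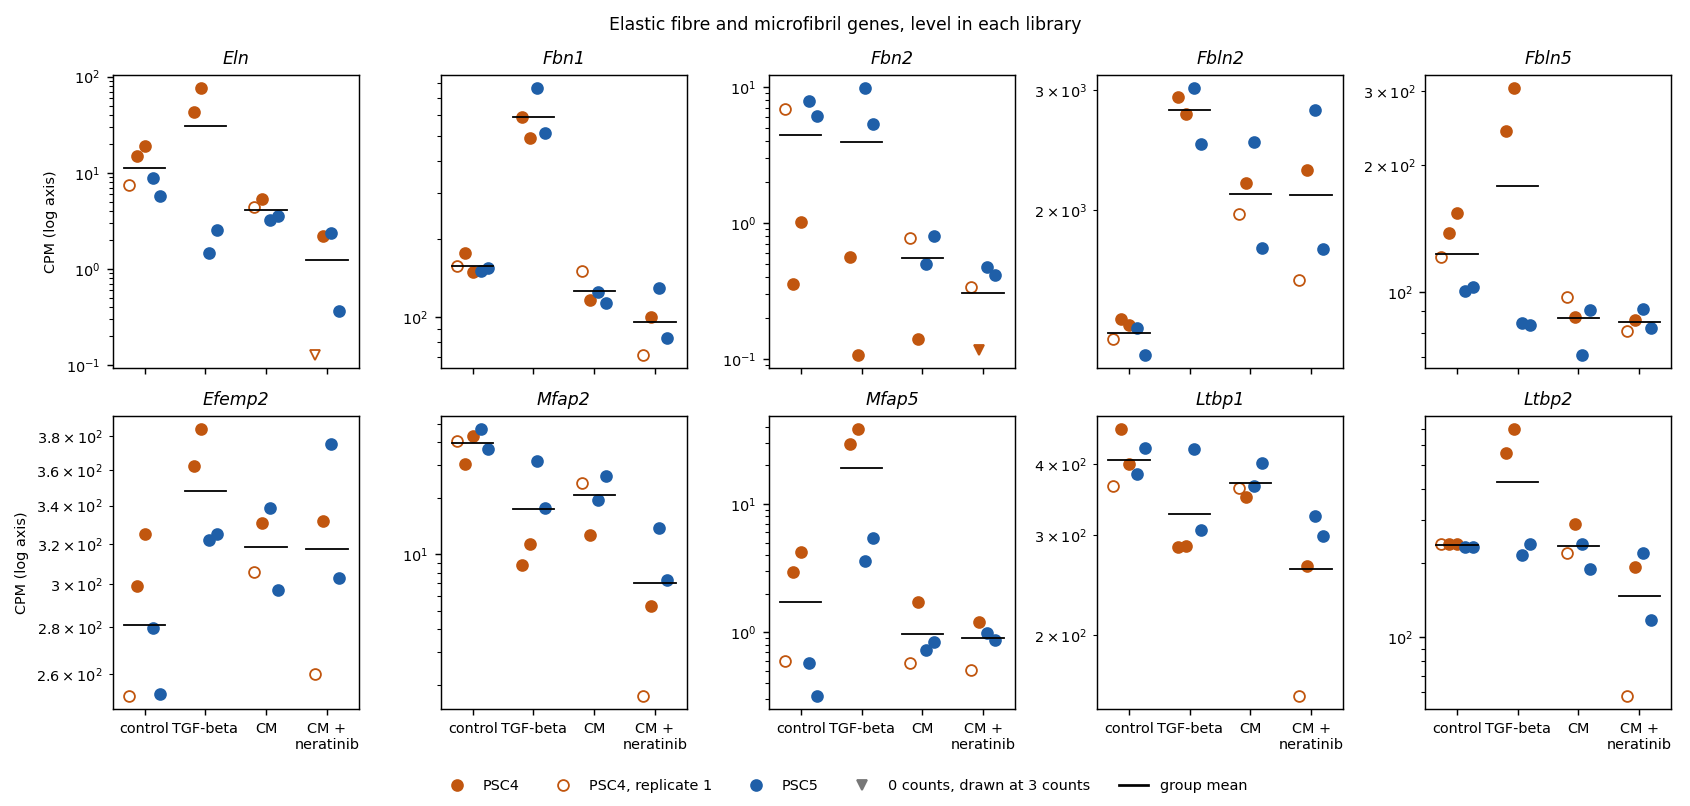
Level of each of the 10 genes in every library, in CPM on log axes that differ between panels, by group. Points are libraries coloured by cell line, and open circles mark the PSC4 replicate 1 libraries. Triangles mark 0 counts drawn at the value of 3 counts, and lines are group means. The 4 TGF-beta libraries of Fbn1 (489.7 to 764 CPM) all lie above the others. For all genes but Fbn1 and Fbln2 the TGF-beta libraries divide by line. Eln, Fbln5, Efemp2, Mfap5 and Ltbp2 are higher in PSC4, and Fbn2, Mfap2 and Ltbp1 are higher in PSC5.

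With TGF-beta against control medium, 5 of the 10 members were called by edgeR's quasi-likelihood test at an adjusted p under 0.05: Fbn1, Fbln2, Mfap5 and Efemp2 were higher and Mfap2 was lower. Of all 13923 genes, 40.2% were called in this comparison (19.7% higher and 20.5% lower), so the count of 5 is near that share. The members' median log2 fold change was 0.65, against -0.02 over all genes tested. Library ranges were apart for 2 members, Fbn1 and Fbln2, both higher (32.7% of all genes in either direction, 16.3% higher).

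In CM against control 2 members were called, Fbln2 higher and Fbn2 lower. Of all genes 14.2% were called, 7.05% higher and 7.14% lower. Ranges were apart for 4 members, Fbln2 higher and Eln, Fbln5 and Mfap2 lower (19.8% of all genes, 9.37% higher and 10.4% lower). With CM plus neratinib against control 6 were called, Fbln2 higher and Eln, Fbn1, Fbn2, Mfap2 and Ltbp1 lower, where 43.1% of all genes were called, 22.2% higher and 20.9% lower. Ranges were apart for 7, Fbln2 higher and Eln, Fbn1, Fbln5, Mfap2, Ltbp1 and Ltbp2 lower (29.4% of all genes, 14.1% higher and 15.3% lower). The comparisons of TGF-beta, CM and neratinib with control share the control libraries.

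Neratinib against CM alone gave 2 calls, Mfap2 and Ltbp1, both lower (20.5% of all genes called, 10.8% higher and 9.63% lower). Ranges were apart for Eln and Ltbp1, both lower (18.7% of all genes, 9.61% higher and 9.14% lower). All 10 fitted differences from CM were below 0 (median log2 -0.46), 4 of them between -0.01 and 0, and those 4 turned positive without PSC4 replicate 1. In CM against TGF-beta, 4 members were called, all lower in CM: Fbn1, Fbln2, Fbln5 and Mfap5 (35.3% of all genes called, 17.8% higher and 17.5% lower). Ranges were apart for 2, Fbn1 and Mfap5 (31.5% of all genes, 15.6% higher and 15.9% lower). Without PSC4 replicate 1 the numbers of members called in these 5 comparisons were 7, 3, 7, 1 and 4, beside 49.4%, 18.1%, 40.3%, 14.2% and 41.6% of all genes.

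**Figure D2:**
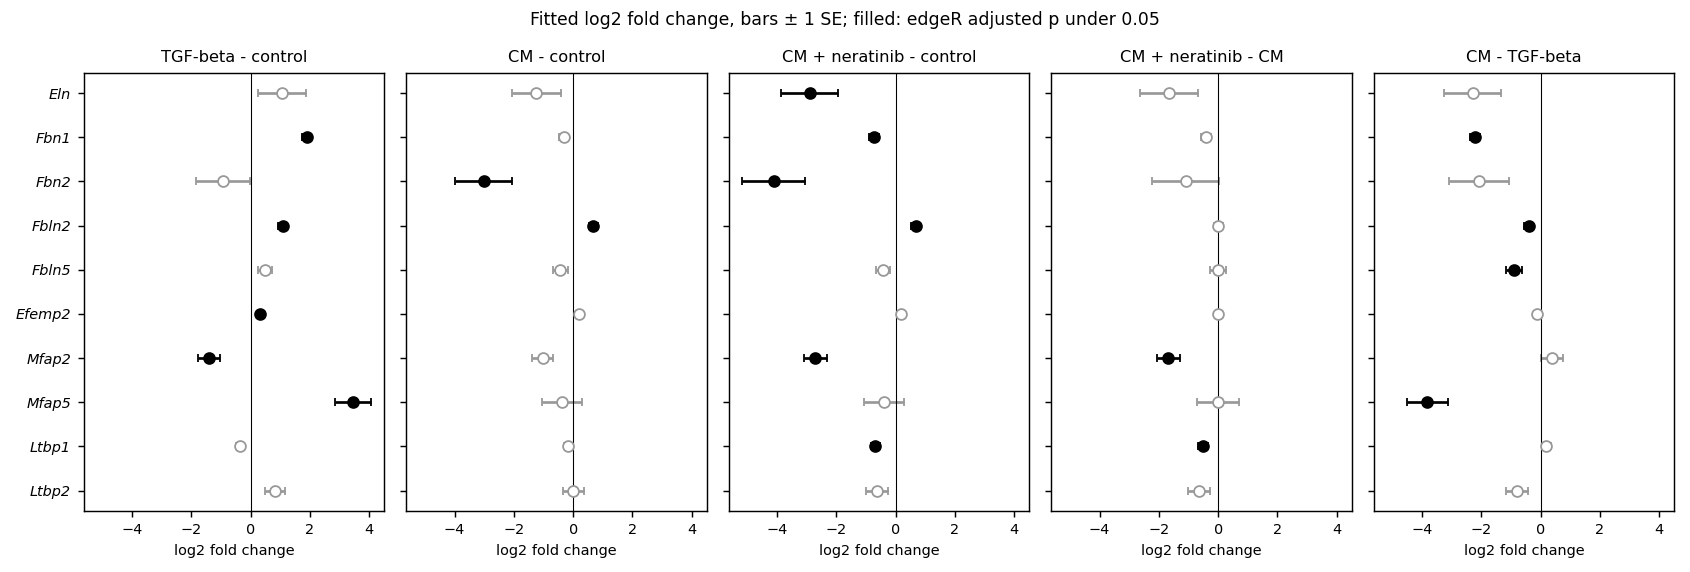
Fitted log2 fold change (horizontal axis) of each of the 10 genes in 5 comparisons, from edgeR over all 17 libraries; bars are 1 standard error and filled points have an adjusted p under 0.05. Fbn1 (1.89) and Mfap5 (3.45) stand to the right with TGF-beta, and Mfap2 stands to the left with TGF-beta (-1.40) and with neratinib against CM (-1.69).

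Elastin, the protein that gives the fibre its recoil, is encoded by Eln on chromosome 5 (134702593 to 134747323, minus strand, GRCm38). In control medium Eln lay at 7.39, 15 and 19.2 CPM in PSC4 replicates 1, 2 and 3 and at 8.76 and 5.78 CPM in PSC5 replicates 1 and 2. With TGF-beta it lay at 43.4 and 76.5 CPM in PSC4 replicates 2 and 3, but at 1.46 and 2.52 CPM in PSC5. Both PSC4 values stood above every control library and both PSC5 values below every one. The pooled fold change of 1.06 (log2, SE 0.82) was not called (edgeR, adjusted p = 0.333) and covers opposite differences within the lines: the group means of log2 CPM differed by 2.16 in PSC4 and by -1.85 in PSC5. Against the control library of the same line and number, the differences were 1.53 and 1.99 in PSC4 and -2.52 and -1.17 in PSC5. Without PSC4 replicate 1 the pooled value was 0.63 (SE 0.71).

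In CM, Eln lay at 4.38 and 5.29 CPM in PSC4 replicates 1 and 2 and at 3.21 and 3.52 CPM in PSC5 replicates 1 and 2. All 4 were below the lowest control library, yet the fitted difference of -1.24 (log2, SE 0.84) was not called (edgeR, adjusted p = 0.361). It was called with the 2 groups alone (-1.34, SE 0.28, edgeR, adjusted p = 0.0121). With neratinib, PSC4 replicate 1 had 0 counts, which allows up to 0.128 CPM, PSC4 replicate 2 had 2.22 CPM, and PSC5 replicates 1 and 2 had 2.38 and 0.367 CPM. These 4 libraries lay below all CM libraries as well as below all control libraries. Against control, Eln fell by 2.90 on the log2 scale (SE 0.96, edgeR, adjusted p = 0.0249), and was -2.54 (adjusted p = 0.0438) without PSC4 replicate 1. The call was lost when any of 4 single libraries was left out (neratinib PSC4 replicate 1 or 2, neratinib PSC5 replicate 2, or control PSC5 replicate 1; adjusted p = 0.0572 to 0.062). Over all single libraries left out, the value ran from -3.97 to -2.33, the former without neratinib PSC5 replicate 1. Against CM the difference of -1.65 (SE 0.98) was not called (edgeR, adjusted p = 0.253), and it ran from -2.78 without neratinib PSC5 replicate 1 (adjusted p = 0.0765) to -1.11 without neratinib PSC4 replicate 1 (adjusted p = 0.451). CM against TGF-beta gave -2.30 (SE 0.95, edgeR, adjusted p = 0.0718), which was called when either PSC5 TGF-beta library was left out (-2.87 and -2.84) and without the line term (-2.92).

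Fibrillin-1, the main microfibril polymer of adult tissue, is encoded by Fbn1 (chromosome 2, 125300594 to 125507993, minus strand), and it gave the smallest adjusted p among the 10 genes with TGF-beta. Fbn1 lay at 158, 176 and 149 CPM in the PSC4 control libraries and at 150.0 and 155 CPM in those of PSC5. With TGF-beta it lay at 590.0 and 489.7 CPM in PSC4 replicates 2 and 3 and at 764 and 514 CPM in PSC5 replicates 1 and 2. Every TGF-beta library was above every control library, in both lines, and the mean went from 157 ± 10.9 (SD, n = 5) to 589 ± 124 CPM (SD, n = 4). The fitted difference was 1.89 on the log2 scale (SE 0.16, 3.72-fold, edgeR, adjusted p = 5.58e-07), and it was called under all 18 alternatives.

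In CM, Fbn1 lay at 151 and 116 CPM in PSC4 replicates 1 and 2 and at 125 and 113 CPM in PSC5. These values reached into the control range at their upper end, and the difference of -0.32 (log2, SE 0.16) was not called (edgeR, adjusted p = 0.199). It was called with the 2 groups alone (-0.31, SE 0.09, edgeR, adjusted p = 0.0344). With neratinib, Fbn1 lay at 71.8 and 100.4 CPM in PSC4 and at 129 and 83.1 CPM in PSC5, all below control. The difference from control was -0.73 on the log2 scale (SE 0.16, edgeR, adjusted p = 0.00264), and it was called under all 18 alternatives. Against CM the difference was -0.40 (SE 0.17, edgeR, adjusted p = 0.102), and with cell line and number as a block it was called (-0.42, adjusted p = 0.0474), as it was without neratinib PSC5 replicate 1 (-0.57, adjusted p = 0.0169). Without PSC4 replicate 1 it was -0.18 (adjusted p = 0.504). CM against TGF-beta gave -2.22 (SE 0.17, edgeR, adjusted p = 3.24e-07), with every CM library below every TGF-beta library.

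Fibrillin-2, encoded by Fbn2, is the fibrillin made mostly during development. It was low, and in control medium it lay at 6.88, 0.358 and 1.02 CPM in PSC4 replicates 1, 2 and 3 and at 7.87 and 6.13 CPM in PSC5. The library labelled PSC4 replicate 1 had a level like those of PSC5. With TGF-beta, Fbn2 lay at 0.564 and 0.108 CPM in PSC4 replicates 2 and 3, the latter 3 counts, and at 9.85 and 5.33 CPM in PSC5. The ranges overlapped and Fbn2 was not called (log2 -0.94, SE 0.90, edgeR, adjusted p = 0.438).

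In CM, Fbn2 lay at 0.781 and 0.141 CPM in PSC4 replicates 1 and 2 and at 0.497 and 0.805 CPM in PSC5. The 2 PSC5 libraries and PSC4 replicate 1 were thus each below their own control (log2 differences of -3.79 to -2.82), and PSC4 replicate 2, already low in control at 0.358 CPM, was lower too. The pooled difference of -3.02 (log2, SE 0.96, edgeR, adjusted p = 0.049) sat at the threshold: it was lost in 8 of 18 alternatives, with adjusted p up to 0.159 (without any of CM PSC4 replicate 2, CM PSC5 replicate 1 or 2, control PSC4 replicate 1 or 3, or control PSC5 replicate 1 or 2, and without the line term), and was -1.97 without control PSC4 replicate 1 and -4.02 without CM PSC4 replicate 1. Without all 3 PSC4 replicate 1 libraries it was -3.35 (SE 0.59, edgeR, adjusted p = 0.00337). With neratinib, Fbn2 lay at 0.341 CPM and 0 counts (up to 0.117 CPM) in PSC4 replicates 1 and 2 and at 0.476 and 0.412 CPM in PSC5, a difference from control of -4.11 (log2, SE 1.06, edgeR, adjusted p = 0.00642). That call held under all 18 alternatives. In CM against TGF-beta the value of -2.08 (SE 1.02) was not called (edgeR, adjusted p = 0.129), but it was with the block (-2.97, adjusted p = 0.000634) and without PSC4 replicate 1 (-3.07, adjusted p = 0.00124).

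Fibulin-2, encoded by Fbln2 (chromosome 6, 91212455 to 91272540, plus strand), binds fibrillin and elastin at the surface of the fibre. Among the 10 members it alone was called higher than control in all 3 treatments by the edgeR fit over all 17 libraries. Control libraries held 1293, 1387 and 1357 CPM in PSC4 and 1343 and 1228 CPM in PSC5. With TGF-beta, Fbln2 lay at 2929.7 and 2767 CPM in PSC4 and at 3022 and 2499 CPM in PSC5. Every TGF-beta library was above every control library, and the difference was 1.08 on the log2 scale (SE 0.15, 2.12-fold, edgeR, adjusted p = 4.18e-05).

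In CM, Fbln2 lay at 1972 and 2190.3 CPM in PSC4 replicates 1 and 2 and at 2513 and 1760.1 CPM in PSC5. With neratinib it lay at 1582 and 2287 CPM in PSC4 and at 2801 and 1752 CPM in PSC5. Both groups lay wholly above control, with the same fitted difference of 0.67 (SE 0.15 in each; edgeR, adjusted p = 0.00853 in CM and 0.00229 with neratinib), and these 2 calls and that with TGF-beta held under all 18 alternatives. Neratinib against CM gave -0.00341 (SE 0.15, edgeR, adjusted p = 0.991). CM was lower than TGF-beta by a small amount (log2 -0.41, SE 0.15, edgeR, adjusted p = 0.0495), a call that was lost in 8 of 17 alternatives (adjusted p up to 0.152): without PSC4 replicate 1, without the filter, and without any of CM PSC4 replicate 1 or 2, CM PSC5 replicate 2, TGF-beta PSC4 replicate 2 or 3, or TGF-beta PSC5 replicate 1.

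Fibulin-5, encoded by Fbln5 (chromosome 12, 101746565 to 101819055, minus strand), links elastin to the microfibril and to cell surface integrins. Its upstream bases, printed above, hold none of the 4 motifs. Control libraries held 121, 138 and 154 CPM in PSC4 and 100.4 and 103 CPM in PSC5. With TGF-beta, Fbln5 lay at 241 and 305 CPM in PSC4 replicates 2 and 3 but at 84.7 and 83.5 CPM in PSC5. The 2 PSC4 libraries were above every control library and the 2 PSC5 libraries below every one, as for Eln. The pooled difference of 0.48 (log2, SE 0.25) was not called (edgeR, adjusted p = 0.138), and it was called when either PSC5 TGF-beta library was left out (0.68 and 0.69, adjusted p = 0.038 for each). In CM, Fbln5 lay at 97.6 and 87.3 CPM in PSC4 and 71.1 and 90.9 CPM in PSC5, and with neratinib at 80.7 and 86.1 CPM in PSC4 and 91.4 and 82.1 CPM in PSC5. All 8 of these libraries lay below the lowest control library, yet neither difference was called over all 17 libraries (log2 -0.43, SE 0.25, in each, edgeR, adjusted p = 0.287 and 0.181). With the 2 groups alone both were called (-0.46, SE 0.10, edgeR, adjusted p = 0.0142, and -0.50, SE 0.12, adjusted p = 0.0125). CM against TGF-beta was called (log2 -0.91, SE 0.27, edgeR, adjusted p = 0.0158); with the block it was -0.68 (adjusted p = 0.0551), and it was also lost without CM PSC4 replicate 2 (-0.81), without TGF-beta PSC4 replicate 3 (-0.63) and with the 2 groups alone (-0.81).

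Efemp2 (chromosome 19, 5473954 to 5482517, plus strand), which encodes fibulin-4, the fibulin that presents lysyl oxidase to elastin, varied least among the fibulins. Its libraries ran from 251 to 325 CPM in control, 322 to 384 CPM with TGF-beta, 297 to 339 CPM in CM and 260.0 to 375 CPM with neratinib, so that every group overlapped control. With TGF-beta it was higher by 0.31 (log2, SE 0.10, edgeR, adjusted p = 0.0268), in 4 of 4 pairs of the same line and number, and the call was lost in 5 of 18 alternatives (adjusted p up to 0.0937), among them each of control PSC4 replicate 1, control PSC5 replicate 2 and the 2 PSC4 TGF-beta libraries left out. The differences of 0.18 in CM and 0.18 with neratinib (SE 0.10 in each) were not called, and both were called with the block (0.23, adjusted p = 0.0228, and 0.22, adjusted p = 0.0126, edgeR). That with neratinib was also called without PSC4 replicate 1 (0.25, SE 0.09, adjusted p = 0.0375) and without the neratinib library of that number alone (0.29, SE 0.09, adjusted p = 0.0307), while that in CM was not called without PSC4 replicate 1 (0.19, adjusted p = 0.158). Eln, Fbn1, Fbn2, Efemp2 and Ltbp2 share exonic bases with a gene on the other strand, of which only Mus81, beside Efemp2, is among the counted gene IDs. Efemp2 shares 173 exonic bases with Mus81 , whose level (15.7 to 24.3 CPM) averaged 6.69% of that of Efemp2. Whether counting used strand is not given in the sources used here.

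The microfibril-associated glycoproteins MAGP-1 (Mfap2) and MAGP-2 (Mfap5) bind fibrillin and went in opposite directions with TGF-beta. Mfap2 (chromosome 4, 141010418 to 141015984, plus strand) lay at 40.6, 30.6 and 42.9 CPM in the PSC4 control libraries and at 46.6 and 36.6 CPM in those of PSC5. With TGF-beta it lay at 8.79 and 11.4 CPM in PSC4 and at 31.6 and 17.8 CPM in PSC5. Each library was below its own control of the same line and number, by 0.56 to 1.90 on the log2 scale, although PSC5 replicate 1 was within the control range. The fitted value was -1.40 (SE 0.37, 2.63-fold lower, edgeR, adjusted p = 0.0068), called under all 18 alternatives.

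In CM, Mfap2 lay at 24.2 and 12.7 CPM in PSC4 replicates 1 and 2 and at 19.5 and 26.3 CPM in PSC5. All were below every control library, but the value of -1.03 (log2, SE 0.35) missed the threshold (edgeR, adjusted p = 0.0653). It passed by DESeq2 (adjusted p = 0.0251) and without PSC4 replicate 1 (-1.21, edgeR, adjusted p = 0.0167). By edgeR it also passed with the 2 groups alone (-0.96, adjusted p = 0.0119) and without CM PSC4 replicate 1 (-1.35, adjusted p = 0.0396). With neratinib Mfap2 lay at 1.75 and 5.29 CPM in PSC4 and at 13.9 and 7.33 CPM in PSC5. Against control that was -2.71 (SE 0.39, 6.56-fold lower, edgeR, adjusted p = 0.000118), with all 4 libraries below control. Against CM it was -1.69 (SE 0.39, 3.22-fold lower, edgeR, adjusted p = 0.00802), lower in 4 of 4 pairs (log2 differences of -3.74 to -0.48), and -1.15 (adjusted p = 0.0341) without PSC4 replicate 1. With only the CM and neratinib libraries in the fit the call was lost (-1.73, adjusted p = 0.0676). Mfap2 was the member with the lowest adjusted p in both neratinib comparisons.

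Mfap5 (chromosome 6, 122505845 to 122529290, plus strand) was near the bottom of the range in control, at 0.596, 2.97 and 4.19 CPM in PSC4 replicates 1, 2 and 3 and at 0.575 and 0.319 CPM in PSC5. PSC4 replicate 1 again had a level like those of PSC5. With TGF-beta it lay at 29.3 and 38.1 CPM in PSC4 and at 3.57 and 5.45 CPM in PSC5. The PSC5 values overlapped the highest PSC4 controls, but within each line all TGF-beta libraries were above all controls, and each was above its own control by 2.49 to 3.81 on the log2 scale. The fitted rise of 3.45 (SE 0.60, 10.9-fold, edgeR, adjusted p = 0.000353) was the largest among the 10 members and held under all 18 alternatives, with 3.18 (SE 0.41) without PSC4 replicate 1. In CM (0.578 to 1.73 CPM) and with neratinib (0.511 to 1.21 CPM) Mfap5 stayed within the control range and was not called (log2 -0.38, SE 0.66, and -0.39, SE 0.68; edgeR, adjusted p = 0.744 and 0.666). The control range of Mfap5 covers lines of unlike level. Within the lines, the group means of log2 CPM differed from control by -0.92 in PSC4 and 0.76 in PSC5 for CM. With neratinib they differed by -1.25 and 0.99, all at low counts. All PSC5 libraries of both groups lay above both PSC5 controls. CM against TGF-beta gave -3.83 (SE 0.69, edgeR, adjusted p = 0.000578), with no overlap.

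Ltbp1 and Ltbp2 belong to the latent TGF-beta binding proteins. LTBP-1 binds the latent TGF-beta complex covalently and tethers it to fibrillin, whereas LTBP-2 does not bind latent TGF-beta and acts in microfibril assembly. Ltbp2 (chromosome 12, 84783212 to 84876532, minus strand) was the steadiest member in control, at 239, 239 and 238 CPM in PSC4 and 232 and 233 CPM in PSC5. With TGF-beta it lay at 559.5 and 696 CPM in PSC4 replicates 2 and 3, and at 215 and 238 CPM in PSC5. Both PSC4 libraries were above all controls, and the PSC5 libraries lay around the control level. The pooled value of 0.82 (log2, SE 0.35) was not called (edgeR, adjusted p = 0.0752). DESeq2 called it (adjusted p = 0.0355), as did 4 other alternatives of 18: without PSC4 replicate 1 (0.73, adjusted p = 0.0425), without TGF-beta PSC5 replicate 1 (1.04), without TGF-beta PSC5 replicate 2 (1.01), and with the 2 groups alone (0.77).

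In CM, Ltbp2 lay at 219 and 287 CPM in PSC4 and 239 and 189 CPM in PSC5, around the control level (log2 0.00273, SE 0.35, edgeR, adjusted p = 0.997). With neratinib it lay at 57.8 and 192 CPM in PSC4 replicates 1 and 2 and at 219 and 117 CPM in PSC5. All 4 were below control, but the difference of -0.63 (SE 0.36) was not called (edgeR, adjusted p = 0.162), nor was that of -0.64 (SE 0.37) against CM (adjusted p = 0.239). The value was called without neratinib PSC5 replicate 1 against control (-0.98, adjusted p = 0.0359). CM against TGF-beta (-0.81, SE 0.37) was not called (adjusted p = 0.105), except without TGF-beta PSC5 replicate 1 (-1.04, adjusted p = 0.0488).

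Ltbp1 (chromosome 17, 75005568 to 75392512, plus strand) ran from 365 to 459.9 CPM in control and from 349 to 401 CPM in CM. With TGF-beta it lay at 286, 287 and 306 CPM in PSC4 replicates 2 and 3 and PSC5 replicate 2, below all controls, and at 425 CPM in PSC5 replicate 1, within the control range. The difference of -0.36 (log2, SE 0.15) was not called (edgeR, adjusted p = 0.0733). It was called with the block (-0.40, adjusted p = 0.0429), without PSC4 replicate 1 (-0.37, adjusted p = 0.0145) and without that PSC5 replicate 1 library (-0.46, adjusted p = 0.032). With neratinib it lay at 156 and 264 CPM in PSC4 and at 324 and 299 CPM in PSC5, all below both control and CM. Against control Ltbp1 fell by 0.69 (log2 -0.69, SE 0.15, edgeR, adjusted p = 0.00255), a call kept under all 18 alternatives. Against CM the value of -0.52 (SE 0.16, edgeR, adjusted p = 0.032) was lost in 8 of 17 alternatives, with adjusted p up to 0.108: without PSC4 replicate 1 (-0.33, adjusted p = 0.0992), without the line term, with the 2 groups alone, and without any of CM PSC4 replicate 1 or 2, CM PSC5 replicate 2, neratinib PSC4 replicate 1 (-0.35) or neratinib PSC5 replicate 2.

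Within the neratinib group the libraries took the same order in most members. PSC4 replicate 1 was the lowest of the 4 for 9 of the 10 members, against 32.5% of all genes tested, and PSC5 replicate 1 was the highest for 9 of the 10, against 24.6% of all genes. PSC5 replicate 1 was close to its CM counterpart: 129 against 125 CPM for Fbn1, 219 against 239 CPM for Ltbp2 and 324 against 365 CPM for Ltbp1. PSC4 replicate 1 was far from its own: 71.8 against 151 CPM for Fbn1, 57.8 against 219 CPM for Ltbp2 and 156 against 362 CPM for Ltbp1. Fbln2, Fbln5 and Efemp2 differed by at most 0.36 on the log2 scale in any of the 4 pairs. For Mfap2 the 4 pairs ran from -3.74 to -0.48.

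The response to TGF-beta was then compared between the lines with an interaction term. No member was called for any of 3 such tests, nor was any of the 13923 genes (0% called by edgeR). DESeq2 called 27 genes in the TGF-beta test, 0 in the CM test and 1 in the neratinib test. For TGF-beta, 3 members had an unadjusted p under 0.05, and in all 3 the response was lower in PSC5: Eln by -3.97 (log2, SE 1.20, unadjusted p = 0.0063, adjusted p = 0.961), Fbln5 by -1.27 (SE 0.20, unadjusted p = 3.45e-05, adjusted p = 0.214) and Ltbp2 by -1.43 (SE 0.56, unadjusted p = 0.026, adjusted p = 1). DESeq2 called Fbln5 (adjusted p = 8.97e-06), and so did edgeR without the low-count filter (-1.29, adjusted p = 0.0455). Without PSC4 replicate 1 the values were -3.67 for Eln (adjusted p = 0.199), -1.19 for Fbln5 (adjusted p = 0.141) and -1.43 for Ltbp2 (adjusted p = 0.308). Eln and Fbln5 had TGF-beta and control ranges apart within each line in opposite directions, higher in PSC4 and lower in PSC5, as did 0.934% of all genes tested. Fbn1 (0.32, SE 0.32), Fbln2 (0.02, SE 0.32), Efemp2 (-0.07, SE 0.20) and Mfap5 (-0.37, SE 1.01) were higher with TGF-beta in both lines, with line differences near 1 SE or less. For CM and for neratinib, 0 members had an unadjusted p under 0.05 over all 17 libraries. Without PSC4 replicate 1, Mfap5 in CM (1.86, edgeR, unadjusted p = 0.00724) and Mfap2 with TGF-beta (1.11, unadjusted p = 0.0491) did. Neither was called after adjustment.

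**Figure D3:**
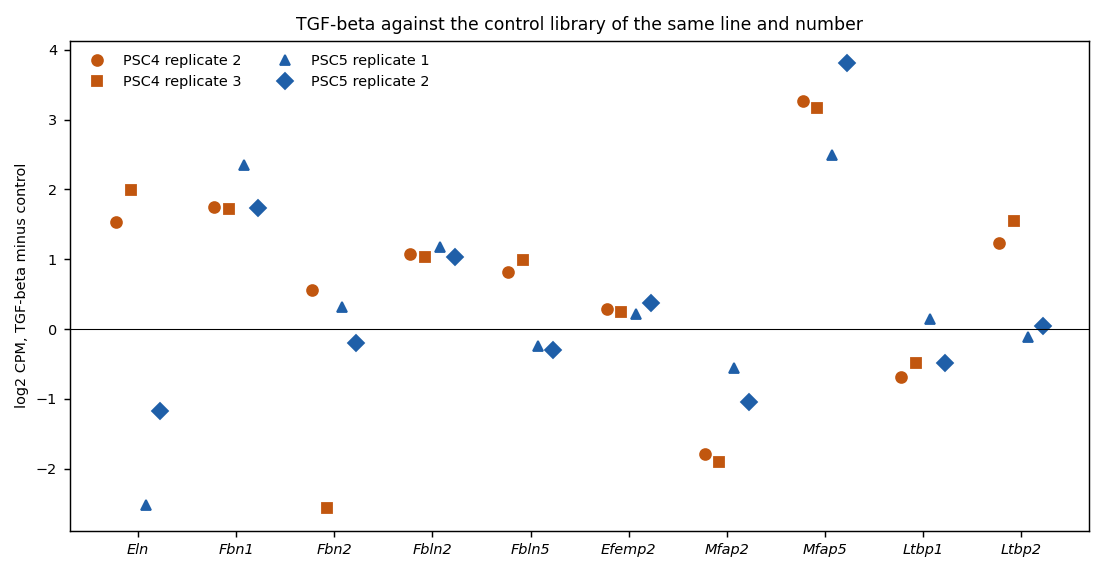
Difference in log2 CPM between each TGF-beta library and the control library of the same cell line and number (vertical axis), for the 10 genes. Fbn1, Fbln2, Efemp2 and Mfap5 lie above 0 in all 4 pairs and Mfap2 below 0 in all 4, while Eln (1.53 and 1.99 in PSC4, -2.52 and -1.17 in PSC5) and Fbln5 lie on opposite sides of 0 in the 2 lines.

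Ratios of paralogs within a library do not depend on library scaling, and 9 were tested with exact permutation tests over libraries, adjusted over the 9. The log2 ratio of Mfap5 to Mfap2 counts went from -5.16 ± 1.67 (SD, n = 5) in control to -0.34 ± 2.47 (SD, n = 4) with TGF-beta. The difference of 4.82 had the smallest p that 4 libraries against 5 allow (exact two-sided p = 0.0159) and an adjusted p of 0.143. No TGF-beta library had a ratio as low as the highest control (-3.14 against -3.35). The ratio was also 1.80 higher with neratinib than in CM (exact p = 0.0857, adjusted p = 0.257), where Mfap2 was called lower and Mfap5 was not called. It was higher in 4 of 4 pairs of the same line and number in each of the 3 comparisons. Fbn2 to Fbn1 was lower with TGF-beta by 2.80, in CM by 2.14 and with neratinib against CM by 0.86 (log2 -2.80, -2.14 and -0.86; exact p = 0.143, 0.127 and 0.543), and lower in 4 of 4 pairs in each (differences of -4.76 to -1.11, -3.67 to -0.65 and -2.81 to -0.07). Ltbp2 to Ltbp1 differed by 1.01, 0.10 and -0.27 (exact p = 0.111, 0.603 and 0.371). None of the 9 passed after adjustment. A single ratio at the smallest possible exact p could not have passed (adjusted p = 0.143), so this does not show that the ratios were unchanged. These tests exchanged libraries across lines and did not use the pairing; with exchange within a line only, the adjusted p of the 9 ran from 0.15 to 0.567.

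Genes that act with these fibres were described from 4 lists. Of 16 microfibril partners, 15 were tested, and with TGF-beta 5 rose and 5 fell (median log2 -0.13, against -0.02 over all genes). For the 4 lists, the shares of all genes called higher and lower were 19.7% and 20.5% with TGF-beta, 7.05% and 7.14% in CM, 22.2% and 20.9% with neratinib against control, 10.8% and 9.63% with neratinib against CM, and 17.8% and 17.5% in CM against TGF-beta. Efemp1 (fibulin-3) and Adamtsl4, a fibrillin-binding ADAMTS-like protein, were lowest among those at 10 CPM or more: Efemp1 went from 188 ± 21.1 to 38.0 ± 28.3 CPM (log2 -2.39, SE 0.41, edgeR, adjusted p = 0.000317) and Adamtsl4 from 46.7 ± 11.9 to 10.5 ± 2.52 CPM (log2 -2.14, SE 0.26, adjusted p = 1.43e-05; n = 5 and 4, SD). Fbln1 also fell (log2 -1.36, SE 0.27, adjusted p = 0.00101). Ltbp4, which guides fibulin-5 onto microfibrils, rose from 36.0 ± 9.25 to 98.2 ± 50.3 CPM (log2 1.42, SE 0.22, adjusted p = 0.000154), and Emilin1, an elastin-microfibril interface protein, from 153 ± 24.6 to 273 ± 64.0 CPM (log2 0.84, SE 0.18, adjusted p = 0.00145). Ltbp3 was not called (log2 0.34, SE 0.19, adjusted p = 0.168). Fbln7, fibulin-7, fell from 65.1 ± 8.43 to 17.8 ± 11.8 CPM (log2 -1.93, SE 0.64, edgeR, adjusted p = 0.0248), with ranges apart, and the call was lost without control PSC5 replicate 1 or either PSC5 TGF-beta library (adjusted p up to 0.0573). Fibulins thus went both ways, with Fbln2 and Efemp2 higher and Fbln1, Efemp1 and Fbln7 lower. In CM against control 1 of the 15 fell, Ltbp4 (19.4 ± 3.55 CPM, log2 -0.82, SE 0.23, adjusted p = 0.0296), a call lost without the line term and when any single library but control PSC4 replicate 1 was left out. With neratinib against control 4 fell and 0 rose, with Adamtsl4 at -1.19 (SE 0.25, adjusted p = 0.00155) and Adamts10, an ADAMTS protease that binds fibrillin-1, at -0.63 (SE 0.14, adjusted p = 0.0028). Against CM, neratinib gave 1 rise (Adamtsl5, log2 0.65, adjusted p = 0.0269) and 2 falls (with Adamts10 at -0.44, adjusted p = 0.0471), and these 2 calls were lost in 6 and 10 of 17 alternatives. In CM against TGF-beta 5 were higher and 6 lower, with Ltbp4 at -2.25 (SE 0.25), Efemp1 at 1.92 (SE 0.41), Fbln1 at 1.49 (SE 0.28) and Emilin1 at -0.94 (SE 0.19).

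In the list of cross-linkers and maturation enzymes, 7 of 9 genes were tested, and with TGF-beta 4 rose and 0 fell. Fkbp10, a collagen and elastin chaperone, went from 172 ± 26.4 to 331 ± 16.9 CPM (log2 0.93, SE 0.10, edgeR, adjusted p = 4.04e-06) and Loxl2 from 119 ± 30.4 to 328 ± 263 CPM (log2 1.22, SE 0.34, adjusted p = 0.00983). Lox and Loxl1, the lysyl oxidases most tied to elastin, were not called (log2 -0.04, SE 0.35, and -0.25, SE 0.18; adjusted p = 0.934 and 0.301). With neratinib against control 4 of the 7 fell and 0 rose: Lox went from 738 ± 156 to 365 ± 252 CPM (log2 -1.05, SE 0.36, edgeR, adjusted p = 0.0284), Loxl1 from 342 ± 30.7 to 210.3 ± 49.9 CPM (log2 -0.71, SE 0.19, adjusted p = 0.00687), and Loxl4 by -0.72 (SE 0.15, adjusted p = 0.00174); the fourth was Loxl3. The call on Lox was lost in 6 of 18 alternatives, those without PSC4 replicate 1 (-0.76), with the 2 groups alone, and without any of neratinib PSC4 replicate 1 (-0.72), neratinib PSC5 replicate 2, control PSC4 replicate 3 or control PSC5 replicate 1, and neither Lox nor Loxl1 was called against CM (adjusted p = 0.0991 and 0.0729). With the block both were called against CM (-1.07, adjusted p = 0.0132, and -0.53, adjusted p = 0.0282). In CM against control, 0 of the 7 were called, and in CM against TGF-beta 4 were lower, with Fkbp10 at -0.76 (SE 0.10) and Loxl3 at -0.63 (SE 0.19).

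Of 7 elastin-degrading proteases 5 were tested. Mmp2 rose with TGF-beta (41.7 ± 8.05 to 109 ± 46.1 CPM, log2 1.37, SE 0.22, edgeR, adjusted p = 0.000161) and in CM (76.2 ± 20.9 CPM, log2 0.92, SE 0.22, adjusted p = 0.0129, lost without CM PSC5 replicate 1, adjusted p = 0.0573, and without the line term). The lysosomal protease gene Ctsl rose in CM (723 ± 117 to 1163 ± 104 CPM, log2 0.72, SE 0.10, adjusted p = 0.000489) and with neratinib (1925 ± 297 CPM, log2 1.43, SE 0.10, adjusted p = 5.38e-07), and it was also higher with neratinib than in CM (log2 0.71, SE 0.11, adjusted p = 0.000636). Ctsk, cathepsin K, was higher with CM plus neratinib than in control (35.1 ± 21.8 against 11.5 ± 6.2 CPM, log2 1.70, SE 0.34, edgeR, adjusted p = 0.00123). Of the 5, only Ctsl was called between neratinib and CM, so Ctsk was not. In the 3 comparisons with control, 2, 3 and 3 of the 5 rose and 0 fell.

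Of 11 genes for integrin receptors and TGF-beta ligands, all tested, 7 rose and 1 fell with TGF-beta. Itgb3, a subunit of an integrin that binds fibrillin and fibulin-5, rose from 6.74 ± 2.33 to 94.4 ± 17.7 CPM (log2 3.86, SE 0.30, edgeR, adjusted p = 2.38e-07), and Tgfb1, the ligand that LTBP-1 holds latent, from 40.1 ± 4.14 to 171 ± 41.9 CPM (log2 2.10, SE 0.19, adjusted p = 8.15e-07). In CM Tgfb1 was higher than control (68.3 ± 18.2 CPM, log2 0.79, SE 0.18, adjusted p = 0.0117) and Tgfb3 lower (41.9 ± 12.6 to 20.8 ± 5.42 CPM, log2 -0.94, SE 0.27, adjusted p = 0.03); Tgfb1 was lost without CM PSC5 replicate 1 (0.61, adjusted p = 0.0573), and Tgfb3 in 6 of 18 alternatives, each the omission of 1 library (CM PSC4 replicate 1 or 2, CM PSC5 replicate 1, control PSC4 replicate 2 or 3, or control PSC5 replicate 1). With neratinib Tgfb3 fell by 1.30 (log2 -1.30, SE 0.27, adjusted p = 0.00171) and Itgb8, part of an integrin that activates latent TGF-beta, rose from 4.12 ± 1.00 to 15.5 ± 7.97 CPM (log2 1.97, SE 0.33, adjusted p = 0.000395), beside a summed level of epithelial markers of 10.0 to 323 CPM in that group. The part of epithelial cells in this difference was not tested. Neratinib against CM gave 1 call of 11, a small rise of Itgb1 (log2 0.18, SE 0.06, adjusted p = 0.0459) that was lost in 11 of 17 alternatives. In CM against TGF-beta 1 was higher and 6 were lower, with Itgb3 at -3.89 (SE 0.33) and Tgfb3 at -2.40 (SE 0.29).

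**Figure D4:**
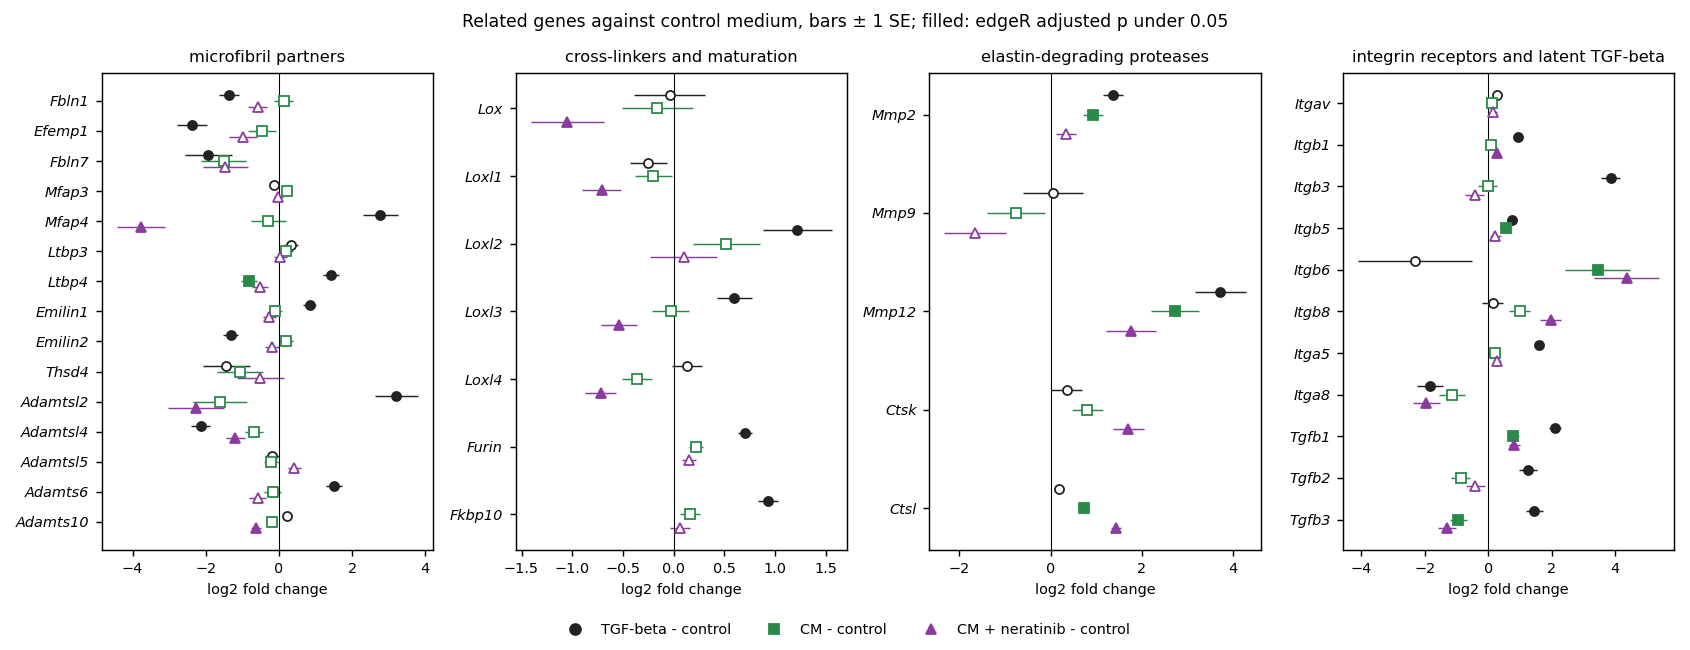
Fitted log2 fold change against control medium (horizontal axis) for the tested genes of 4 related lists, by treatment; bars are 1 standard error and filled symbols have an adjusted p under 0.05. Cross-linker genes that were called lie to the right of 0 with TGF-beta (Loxl2 1.22, Fkbp10 0.93) and to the left with neratinib (Lox -1.05, Loxl1 -0.71). With neratinib, 3 of the 7 tested cross-linker genes lie to the right of 0, none of them called. Microfibril partners called with TGF-beta lie on both sides.

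The genes most like 4 of the members were ranked by Pearson's r of log2 CPM across the 17 libraries, which share the same 4 groups and 2 lines, so r is a description. For Fbn1 these were Ncam1 (r = 0.980), Atp2b4 (0.977) and Palld (0.974). For Mfap5 they were Srpx2 (0.972), Fabp3 (0.961) and Vps8 (0.959), for Eln Sfrp4 (0.963), Pola1 (0.960) and Ptger1 (0.947), and for Ltbp2 they included Serinc5 (0.942) and P4ha3 (0.940). Genes like Fbn1 were raised with TGF-beta in both lines, as Ncam1 was (mean 289 CPM in PSC4 and 287 CPM in PSC5, against 49.0 CPM in control). Genes like Eln, Mfap5 and Ltbp2 were higher with TGF-beta in PSC4 than in PSC5: Sfrp4 lay at 63.5 and 7.05 CPM, Srpx2 at 58.6 and 10.5 CPM and P4ha3, a collagen prolyl hydroxylase subunit, at 40.6 and 20.7 CPM.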

How the data were processed

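Bulk RNA of 17 libraries was analysed from tables of estimated counts per gene, which the authors deposited for each library. The submitters' processing notes name Salmon 1.4.0, DESeq 2 and the builds GRCm38 and mm10; whether counting used strand is not given in the sources used here. The deposited estimated counts were rounded to whole numbers, since 74.8% of values above 0 were not whole; no library total moved by more than 307.9 counts. Totals were 22168953 to 29421447 counts per library, so that 3 counts were 0.101 to 0.137 CPM. Floors of this kind cover counting error only. Columns of per-sample values not used numbered 0.

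Genes were filtered with filterByExpr (minimum count 10, minimum total 15), scaled with TMM factors and fitted in edgeR 4.0.16 (R 4.3.3; glmQLFit and glmQLFTest), with group and cell line as terms over all 17 libraries and Benjamini-Hochberg adjustment over 13923 genes. Log2 CPM used a prior count of 2. The SE given with an edgeR value is the absolute log2 fold change divided by the square root of the quasi-likelihood F statistic. Alternatives were DESeq2 1.42.0, other scaling factors and filters, a fit without the line term, a fit of the compared groups only, each library left out in turn, the PSC4 replicate 1 libraries removed, and the line and replicate number as a block. The number marks the passage within a line. After removal of the group means, libraries of the same line and number deviated together in 22 of 22 pairs (correlation 0.120 to 0.635, median 0.299). Pairs within a line but of unlike number ran from -0.536 to 0.613 (median -0.076, 32 pairs). Leaving PSC4 replicate 1 aside, like numbers gave a median of 0.288 (19 pairs). Unlike numbers then gave 0.255 (-0.222 to 0.613, 18 pairs). The line difference was not removed, so a shared number is hardly told apart from a shared line. Pairing the libraries by number was therefore an assumption. The labels do not say that libraries came from separate cultures or animals, so p-values measure the spread between these libraries. Paralog ratios used counts plus 0.5 and exact permutation tests. The fits were tested on simulated data.

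The members and the lists were chosen with earlier results of these data known. Genes named from the related lists were up to 2 called genes per list and comparison with the largest log2 fold change among those reaching a mean of 10 CPM, and Lox, Loxl1, Fbln1, Emilin1, Ltbp3 and Ltbp4 whatever their values; Loxl3, Fbln7 and Cd14 were named besides, after their values were seen. Gene positions are those of GENCODE on GRCm38, and promoter windows those of RefSeq on GRCm38.p6. For likeness, the 3 genes with the highest Pearson r were taken for each of 4 members; 1 of those for Ltbp2 is not reported here.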

Additional observations from a re-analysis of the deposited data

Results flagged for a closer look

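Ltbp1 in the TGF-beta library PSC5 replicate 1 stood apart from the other 3 libraries of its group, at 425 CPM against 286 to 306 CPM. Such gaps were looked for in 40 sets of libraries (10 members in 4 groups), of which chance marks about 1 in 20, and 1 was found.

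The response of Eln to TGF-beta differed between the lines by -3.97 on the log2 scale (PSC5 minus PSC4, SE 1.20), with 2 of 2 PSC4 libraries above and 2 of 2 PSC5 libraries below all control libraries. The response of Fbln5 differed by -1.27 (SE 0.20), with the same sides in the same libraries. By the interaction test of edgeR neither passed the adjustment over all genes (adjusted p = 0.961 and 0.214).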

How the results depend on the processing

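Of 1968 alternative values of 112 log2 differences, 1778 kept their direction and their side of the threshold, 93 lost a call, 48 gained one and 49 changed sign, all of these among differences that were not called. The number of members called in CM against control (2) was 1 without the cell line term and 6 with only the compared groups, and in neratinib against CM (2) it was 1 with the PSC4 replicate 1 libraries removed, 1 without the cell line term and 0 with only the compared groups, where all genes called fell from 2850 to 602. Leaving out 1 library at a time gave 4 to 8 members called with TGF-beta, 8 of them without TGF-beta PSC5 replicate 1, 1 to 3 in CM, 5 to 7 with neratinib against control, 1 to 3 with neratinib against CM, and 2 to 5 in CM against TGF-beta. The line difference in the TGF-beta response gave 1 called member (Fbln5) with no filter and 1 with DESeq2, against 0. Upper-quartile factors gave 783 genes higher and 1307 lower in CM against 982 and 994, and 2442 and 3494 with neratinib against 3085 and 2913. The cause of these changes was not tested, beyond the smaller number of samples or genes in some fits.

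None of the log2 differences that changed sign was called. Over all libraries they reached -0.38 for Mfap5 in CM and -0.39 with neratinib, both against control. The ratio of Fbn2 to Fbn1 with neratinib against CM, which also changed sign, was -0.86. For neratinib against CM with PSC4 replicate 1 removed, Fbln2 was 0.08, Fbln5 0.07, Efemp2 0.06 and Mfap5 0.00639, and Mfap5 was 0.04 by DESeq2. With 1 library left out they ran from -0.18 to 0.12 (Fbln2), -0.15 to 0.14 (Fbln5), -0.11 to 0.10 (Efemp2), -0.41 to 0.42 (Mfap5) and -0.30 to 0.03 (Ltbp3). Against control, Ltbp2 in CM was -0.04 with upper-quartile factors, -0.02 without the line term and -0.01 with the compared groups only, and Ltbp3 with neratinib was -0.02 and -0.0037 under the first pair of these. With 1 library left out, Ltbp2 in CM ran from -0.07 to 0.09, Mfap5 from -0.63 to 0.05 in CM and from -0.75 to 0.07 with neratinib, Ltbp3 with neratinib from -0.11 to 0.23, Fbln1 in CM from -0.00782 to 0.26, Emilin1 in CM from -0.20 to 0.00883, Lox with TGF-beta from -0.17 to 0.08 and Loxl1 in CM against TGF-beta from -0.07 to 0.27. The log2 ratio of Ltbp2 to Ltbp1 ran from -0.03 to 0.24 in CM against control, and that of Fbn2 to Fbn1 from -1.36 to 0.29 with neratinib against CM.

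With the replicate block, Mfap5 was 0.05 in CM and 0.02 with neratinib against control, and in CM against TGF-beta Lox was 0.08 and Ltbp3 0.04. The block gave 6, 3, 7, 3 and 4 members called in the 5 comparisons, beside 50.9%, 23.3%, 52.4%, 32.8% and 43.4% of all genes, and among the members it changed no call beyond those given with their results.

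Low counts limit Fbn2 and Eln, which each had 1 library with 0 counts, and Mfap5, which had 9 to 119 counts per library in control and 17 to 49 in CM.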
